A study of Homo sapiens with 17 samples.

Results

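Core spliceosome component mRNAs were taken as the protein-coding genes whose symbols begin with SNRP, SNRNP, LSM, SF3A, SF3B, PRPF or U2AF followed by a subunit letter or number. This name rule found 57 of the 18869 genes in the table, among 13473 protein-coding genes. SNRPN, which also carries such a name, had no row in the table used. Ribo-STAMP marks ribosome contact by fusing the C-to-U editing enzyme APOBEC1 to the small-subunit ribosomal protein RPS2, so that transcripts touched by ribosomes gather edits. The study compared this editing on RNA bound by the nuclear poly(A)-binding protein (PABPN) and by its cytoplasmic counterpart (PABPC), and sequenced the starting RNA (Input) beside both immunoprecipitations (IPs).

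All samples were HEK293T, a human embryonic kidney cell line, carrying a stable lentiviral construct. RPS2-STAMP lines expressed the fusion and Control-STAMP lines expressed APOBEC1 without the ribosomal protein. Both were induced with 50 ng/ml doxycycline for 24 h and crosslinked with 0.1% formaldehyde. There were 3 RPS2-STAMP samples for each of the 3 fractions, and Control-STAMP had 3 Input, 3 PABPN IP and 2 PABPC IP samples. According to the methods, the cells were fractionated and all 3 fractions compared here came from cytoplasm, which the sample labels do not name. Editing was expressed as normalized EPKM, the edits of RPS2-STAMP scaled by transcript length and library size after subtraction of Control-STAMP. Abundance was expressed as average TPM, read counts scaled by length and then taken as a share of the library, which is a different scale. Where 3 values of a gene are given together, they stand for the Input, PABPN IP and PABPC IP in this order. Each gene had a single pooled value per fraction. No difference between fractions therefore had a replicate check, and the table gave neither the depth of each sample nor the number of edits behind a value.

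The spliceosome removes introns from pre-mRNA and is built on small nuclear RNAs wrapped in protein rings. A ring of Sm proteins encircles the U1, U2, U4 and U5 small nuclear RNAs, and a related ring of LSm2 to LSm8 proteins binds the end of U6. U1 recognises the 5′ splice site. U2AF and the U2 particle, with its SF3A and SF3B subcomplexes, recognise the 3′ splice site and the branch point, and the U4/U6.U5 tri-snRNP with its PRPF proteins then brings in the catalytic centre. The Sm and LSm proteins are small, while SF3B1, PRPF8 and SNRNP200 are very large, so mRNAs of a single machine differ widely in coding length. LSM1, LSM10, LSM11, LSM12, LSM14A and LSM14B share the fold or the name but belong to mRNA decay, histone pre-mRNA processing and other complexes.

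The cell line markers VIM (TPM 184, 144 and 241 across the 3 fractions), CDH2 (14.8, 47.3 and 24.8) and NEFM (9.0, 12.9 and 10.4) were present, whereas the kidney lineage factor PAX2 was low (0.797, 2.41 and 1.28). Of markers of other cell types, APOA1 of liver (0.402, 2.14 and 0.629) and the fibroblast collagens COL1A1 (1.90, 4.42 and 2.15) and COL3A1 (0.0880, 0.293 and 0.0812) were low, and PTPRC, CD3E, ALB, MYH7 and INS had no value in the table used. The nuclear RNAs MALAT1 (TPM 55, 208 and 10.3) and NEAT1 (4.27, 55.8 and 3.25) were highest in the PABPN IP. The abundant cytoplasmic mRNAs chosen as a check were highest in the PABPC IP, namely GAPDH (2463, 1863 and 4961), ACTB (1891, 1609.9 and 3819), EEF1A1 (2454, 2239 and 6769.8) and RPLP0 (1332, 1171 and 3949). This did not hold for every mRNA, since CDH2 and NEFM were highest in the PABPN IP. Editing of RPLP0, an abundant ribosomal protein mRNA, was nevertheless 0.312 in the PABPC IP and listed at 0 elsewhere. A value of 0 is therefore reported below only as listed at 0.

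Values over the members are given for the 53 whose average TPM reached 5 in each IP, beside the 9607 protein-coding genes that passed the same filter. The 4 members outside it were U2AF1, U2AF1L5, PRPF40B and SNRNP35, and because all 4 had a lower TPM with PABPC than with PABPN, the filter took away members low in the PABPC IP. Their values are given with their complexes. The summed TPM of all 57 members, without the filter, made up 0.517% of the Input total, 0.655% of the PABPN IP total and 1.04% of the PABPC IP total.

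Spliceosome mRNAs had a higher median EPKM than protein-coding genes in the Input, and in the IPs the medians lay closer together. EPKM is not scaled to abundance, and these mRNAs were abundant. Relative to TPM, as given below, their Input editing was close to that of protein-coding genes. The median EPKM of the 53 members was 0.0854 in the Input (95% order-statistic interval over genes 0.0602 to 0.127), 0.0547 in the PABPN IP (0.0280 to 0.0938) and 0.0617 in the PABPC IP (0.0421 to 0.115). Over protein-coding genes it was 0.0273, 0.0334 and 0.0501. Genes are not replicates, so the members' intervals are no test against these values. The members' median was thus highest in the Input, where that of protein-coding genes was lowest. EPKM exceeded the upper quartile of protein-coding genes in 30 of the 53 members in the Input (56.6%), 23 in the PABPN IP (43.4%) and 20 in the PABPC IP (37.7%), against 25.0% of protein-coding genes by construction.

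Most members had some editing. EPKM was above 0 in 47 of 53 members in the Input (88.7%, 95% Wilson interval 77.4% to 94.7%, against 78.1% of protein-coding genes). It was above 0 in 44 in the PABPN IP (83.0%, 70.8% to 90.8%, against 72.9%) and in 45 in the PABPC IP (84.9%, 72.9% to 92.1%, against 82.6%). In all, 33 members were above 0 in all 3 fractions (62.3%, against 50.5% of protein-coding genes), 17 in 2 (32.1%, against 34.7%) and 3 in a single fraction (5.66%, against 12.7%). The fraction with the highest EPKM was the Input for 24 members (45.3%, against 26.6% of protein-coding genes), the PABPN IP for 14 (26.4%, against 28.7%) and the PABPC IP for 15 (28.3%, against 42.6%).

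**Figure D1:**
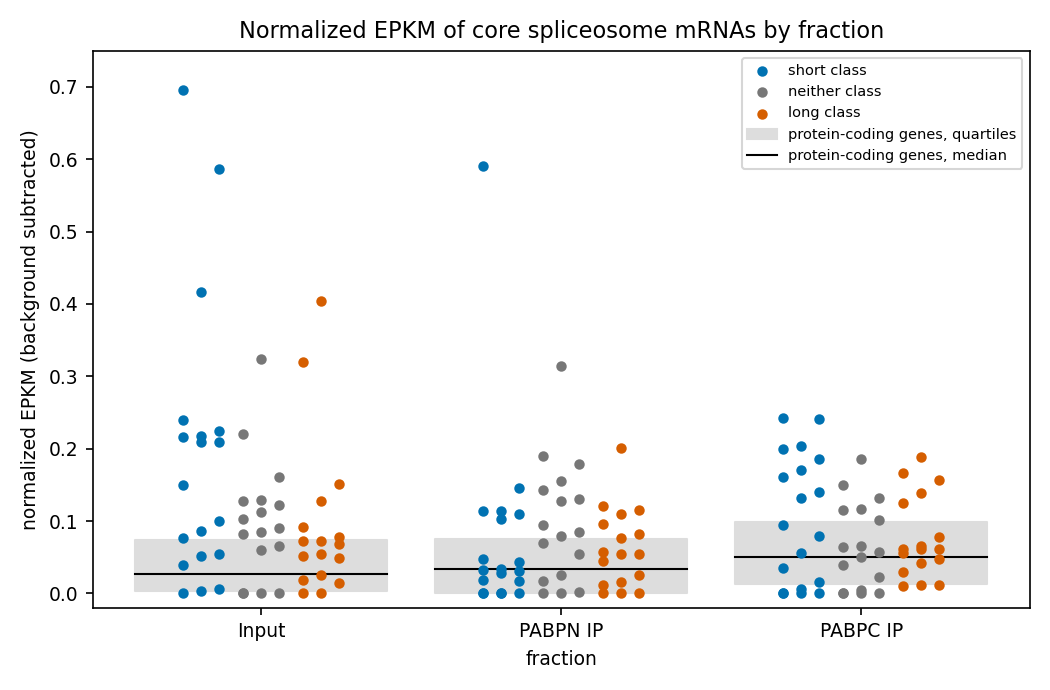
Normalized EPKM (y axis, edits scaled by length and library size, less background) of the 53 members whose TPM reached 5 in each IP, by fraction (x axis). Each point is 1 gene, colored by length class, and the grey box and black line are the quartiles and median of 9607 protein-coding genes. Points above 0.5 are SNRPB and SNRPD2 in the Input and SF3B5 in the PABPN IP.

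The Sm ring held the most heavily edited members of the Input. SNRPB, which forms the ring together with the D, E, F and G proteins, had an EPKM of 0.696 in the Input, above 99.5% of protein-coding genes, but was listed at 0 with PABPN and at 0.0946 with PABPC, although its TPM was 646, 732 and 1790.0. SNRPD2 was edited at 0.586, 0.114 and 0.171, at a TPM of 243, 263 and 743. Both SNRPB and SNRPD2 had their highest editing in the Input and their highest TPM in the PABPC IP.

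Editing of SNRPD3, whose protein pairs with SNRPB, was 0.209, 0.0474 and 0.0351, and that of SNRPD1, whose protein pairs with SNRPD2, was 0.150, 0.110 and 0.132. SNRPE stood at 0.24, 0.146 and 0.140 and SNRPG at 0.209, 0.0332 and 0.161. SNRPF was the exception to the order of fractions, with an EPKM of 0.101, 0.114 and 0, so that 6 of the 7 Sm mRNAs were highest in the Input (26.6% of protein-coding genes) and SNRPF in the PABPN IP (28.7%). Between the IPs, editing was higher with PABPC for 4 of the 7 (56.4% of protein-coding genes) and higher with PABPN for 3, so that the ring did not lie on a single side. SNRPG is among these 4, and its direction is uncertain. Its pseudogene SNRPGP10, described below, had an EPKM of 2.07 with PABPN and 0.591 with PABPC. SNRPE, among the 3, was nearly equal in the IPs, and its direction is uncertain as well. Its copy SNRPEP4 had an EPKM of 0.141 with PABPN and was listed at 0 in the other fractions.

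By abundance the Sm mRNAs did lie together. The log2 ratio of average TPM, with 0.5 added to each TPM, was centred on its median over protein-coding genes, and a ratio past 0.5 was counted as higher. All 7 Sm mRNAs were higher with PABPC than with PABPN, from 1.15 for SNRPE to 1.69 for SNRPD2, where 29.9% of protein-coding genes passed the threshold. The other 5 were SNRPF (1.25), SNRPG (1.25), SNRPD3 (1.28), SNRPD1 (1.31) and SNRPB (1.48). Across the fractions TPM was 104, 107 and 228 for SNRPD3, 35.8, 42.7 and 93.5 for SNRPD1, 45.4, 71.1 and 139 for SNRPE, 13.3, 20.3 and 42.8 for SNRPF and 92.4, 151 and 317 for SNRPG. SNRPF was the least abundant Sm mRNA in every fraction and SNRPB the most abundant. An average TPM is a share of its library, so more of a transcript in a fraction and less of the other transcripts there cannot be told apart.

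Reads of some members are uncertain because the genome holds processed copies of them. The table lists 8 pseudogenes named after 5 members (SNRPG, SNRPE, SNRPC, SNRPA1 and LSM12), of which 6 had an EPKM above 0 in some fraction. SNRPGP10, a copy of SNRPG, had an EPKM of 1.02, 2.07 and 0.591 at a TPM of 46.8, 82.6 and 210.5, above the EPKM of SNRPG itself in each fraction. EPKM of SNRPGP2, another copy of SNRPG, was 0, 0.951 and 1.18. LSM12P1, a copy of LSM12, stood at 0.178, 0.214 and 0.0562. Whether reads of the copies and of their parent genes were assigned apart was not tested.

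The LSm2 to LSm8 ring of U6 was less uniform than the Sm ring. LSM2, LSM3 and LSM4 resembled most Sm mRNAs in having their highest editing in the Input. LSM2 had an EPKM of 0.224, 0.0313 and 0, LSM3 one of 0.215, 0.0280 and 0.0786 and LSM4 one of 0.218, 0 and 0.186. LSM5 (0.0864, 0.0428 and 0.20) and LSM7 (0.0767, 0.103 and 0.243) were instead highest in the PABPC IP, LSM7 above 96.7% of protein-coding genes there. LSM6 (0.00651, 0.0167 and 0.0160) and LSM8 (0.00324, 0.0183 and 0.00632) had little editing in any fraction, and were also the least abundant of the ring, with a TPM of 6.51, 14.9 and 15.9 for LSM6 and 4.49, 15.3 and 7.22 for LSM8.

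In the TPM ratio of the PABPC IP to the PABPN IP, 5 of the 7 ring members were past 0.5, as were 29.9% of protein-coding genes, namely LSM3 (1.61), LSM4 (1.51), LSM2 (1.35), LSM5 (0.88) and LSM7 (0.74). LSM6 was at 0.29. TPM of the 5 was 56.4, 64.1 and 173 for LSM3, 159, 200.2 and 501 for LSM4, 126, 188 and 420.0 for LSM2, 23.4, 39.4 and 64.0 for LSM5 and 55.9, 109 and 159 for LSM7, each highest in the PABPC IP. LSM8, the subunit that sets the nuclear U6 ring apart from the cytoplasmic ring built on LSM1, was at -0.85 and was the single short member past -0.5, where 31.1% of protein-coding genes lay. LSM1, its counterpart in the ring that promotes mRNA decapping, was at 1.06.

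LSM1 and LSM10 had the largest excess of PABPC IP over PABPN IP editing among members outside the rings and the SF3 and U2AF groups. EPKM of LSM1 was 0.0393, 0.000368 and 0.204, and that of LSM10, a ring protein of the U7 particle that cuts histone pre-mRNA, was 0.0511, 0.0319 and 0.241. LSM12 went the other way, at 0.220, 0.0938 and 0.0392, with a TPM of 102, 140.2 and 261, but in both IPs the EPKM of its copy LSM12P1 was above its own, so that its direction is uncertain. The 3 remaining LSm mRNAs, LSM11, LSM14A and LSM14B, had EPKM between 0 and 0.150.

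**Figure D2:**
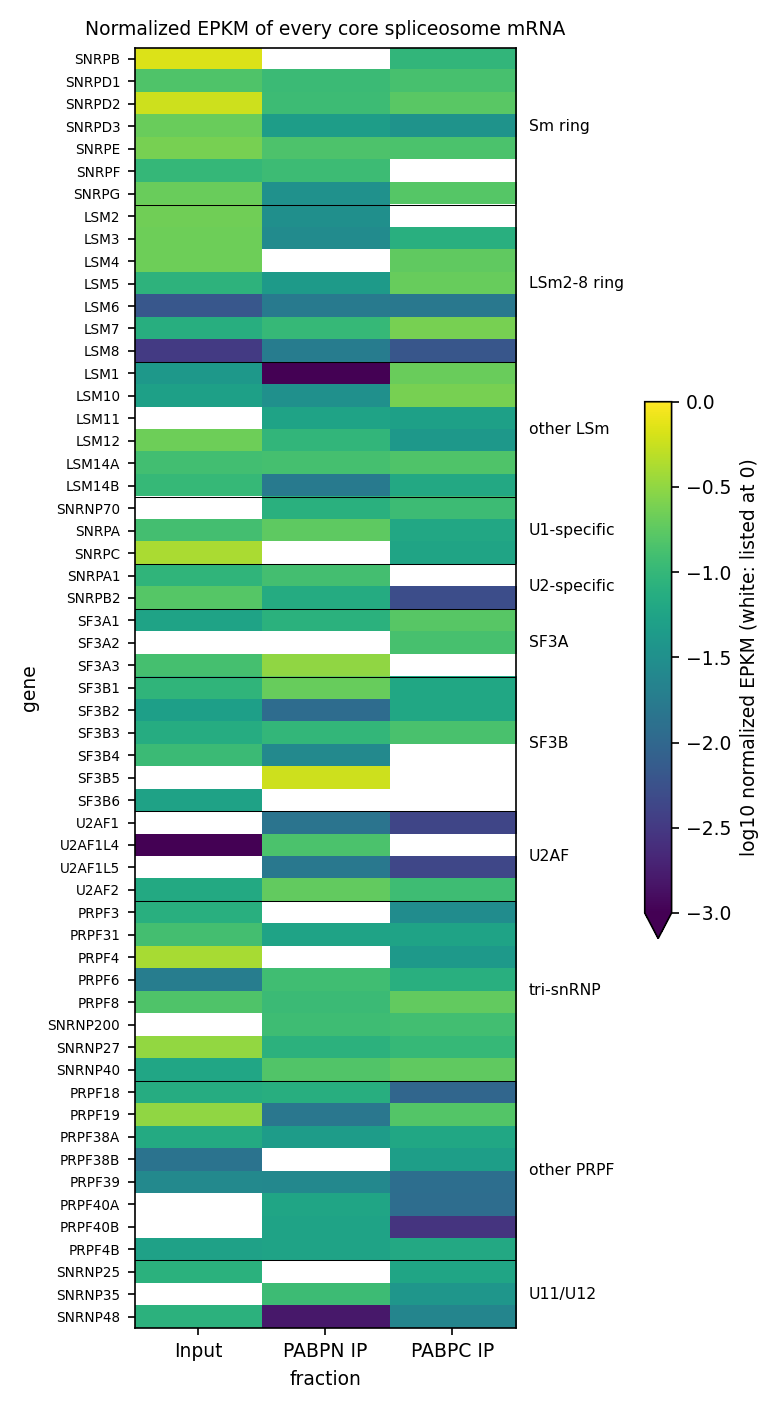
Normalized EPKM of all 57 members (rows, grouped by complex) in each fraction (columns). Color gives log10 EPKM, and white marks a value listed at 0. White cells lie in each fraction, as for SF3B5 outside the PABPN IP and for SNRPB within it.

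Among proteins specific to the U1 particle, the mRNA of SNRPC, which stabilises pairing with the 5′ splice site, was edited at 0.417, 0 and 0.0561. SNRPA, which binds a stem-loop of U1, was highest in the PABPN IP (0.127, 0.178 and 0.0635). Both were abundant, with a TPM of 196, 246 and 491 for SNRPC and 111, 112 and 187 for SNRPA, and both were past 0.5 in the ratio of the PABPC IP to the PABPN IP (1.18 and 0.93). SNRNP70, the third U1 protein, singled out after its values were seen, had a ratio of -1.23 and an EPKM of 0, 0.0799 and 0.115. The 3 proteins of a single particle thus had mRNAs on both sides.

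The U2 particle proteins SNRPA1 and SNRPB2, which bind a U2 stem-loop as a pair, both had less editing with PABPC than with PABPN. EPKM was 0.0907, 0.127 and 0 for SNRPA1 and 0.160, 0.0692 and 0.00507 for SNRPB2. Their TPM ratios of the PABPC IP to the PABPN IP differed, at -0.02 and 1.11, with a TPM of 35.1, 70.3 and 61.0 for SNRPA1 and 32.8, 30.4 and 58.2 for SNRPB2.

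SF3A and SF3B clamp U2 on the branch point, and their mRNAs included wide contrasts. SF3B5 (ENSG00000169976), the smallest SF3B subunit, was edited at 0.591 in the PABPN IP and listed at 0 in the others, above 99.9% of protein-coding genes in that IP. Its TPM was 323, 492 and 972, the second highest of the members in each. SF3B6, which touches the branch adenosine, was as abundant as many Sm mRNAs (198, 187 and 544) but was edited at 0.0538, 0 and 0.

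SF3B1, the large scaffold that encloses the branch helix and is often mutated in myelodysplasia, had an EPKM of 0.0914, 0.201 and 0.0617 and so was highest in the PABPN IP. SF3B3 was highest in the PABPC IP (0.0717, 0.0961 and 0.139), whereas SF3B4 was highest in the Input (0.112, 0.0257 and 0). SF3B2 had 0.0490, 0.0114 and 0.0616. Of the 6 SF3B mRNAs, 2 had more editing with PABPC than with PABPN (33.3%, against 56.4% of protein-coding genes), 3 had less and SF3B6 was listed at 0 in both.

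The TPM ratio of the PABPC IP to the PABPN IP ran through SF3B from the top to near the bottom of all members. It was 1.72 for SF3B6, 1.17 for SF3B5, 0.73 for SF3B4, -0.21 for SF3B2, -0.74 for SF3B3 and -1.48 for SF3B1. TPM of the abundant SF3B4 was 123, 123 and 179, that of SF3B2 31.8, 39.9 and 30.2, that of SF3B3 76.1, 135 and 70.6 and that of SF3B1 43.8, 128 and 40.0. Coding length in the same order as the ratios was 375, 258, 1272, 2685, 3651 and 3912 nt. The 3 short or intermediate subunits were all above 0 and the 3 long ones all below it.

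The poly(A) tail is what both precipitated proteins bind, so the signal that directs its addition is shown for SNRPD2, which had a high ratio, and for the 2 lowest ratios among members that hold its common form near the end, picked after their values were seen. Each window holds 30 bases of the last exon in the 3′ UTR of the canonical transcript, read 5′ to 3′ on the mRNA strand from hg38 and GENCODE release 44, with the AATAAA hexamer in capitals.
SNRPD2, chr19:45687466-45687495 (− strand): ggtgttgagaatAATAAAgctctgtgtttt
SF3B1, chr2:197389788-197389817 (− strand): taccactagatgAATAAAacgtattatatc
PRPF4B, chr6:4064948-4064977 (+ strand): actgggaaactgAATAAAatatgcctctta
In these 3 mRNAs the hexamer lay 18, 16 and 18 nt before the annotated end, in that order. AATAAA was found in the last 50 nt of the canonical transcript, on the transcribed strand, in 60.4% of the 53 members and in 66.6% of protein-coding genes. All 3 were chosen to hold it, so its presence at both ends of the ratio is no result.

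Of the SF3A subunits, which join SF3B to the U2 particle, SF3A3 was edited at 0.129, 0.314 and 0, above 99.2% of protein-coding genes in the PABPN IP. SF3A2 was at 0.132 in the PABPC IP and listed at 0 in the others. SF3A1 was highest in the PABPC IP as well (0.0549, 0.0823 and 0.166). TPM ratios of the PABPC IP to the PABPN IP were 0.21, -0.81 and 0.50, the last just past the threshold, and TPM was 50.6, 75.0 and 76.2 for SF3A3, 75.5, 216 and 108 for SF3A2 and 83.9, 78.3 and 97.3 for SF3A1. The 3 proteins form a single complex, and their mRNAs lay on both sides in both readouts.

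U2AF2, which binds the polypyrimidine tract, had an EPKM of 0.0660, 0.189 and 0.116 and a TPM of 188, 216 and 373, with a ratio of the PABPC IP to the PABPN IP of 0.98. Its partner U2AF1, which reads the AG at the 3′ splice site, had a TPM of 1.30, 8.0 and 0.629 and an EPKM of 0, 0.0141 and 0.00421, and a ratio of -2.72, the lowest of all 57 members. U2AF1L5 was similar, with a TPM of 0.473, 3.14 and 0.363, an EPKM of 0, 0.0158 and 0.00433 and a ratio of -1.89. The canonical transcripts of U2AF1 and U2AF1L5 are both 945 nt long and identical at 944 positions, so that reads of the shared stretches cannot be told apart and the levels of both are uncertain. U2AF1L4, a related protein, was edited at 0.000118, 0.143 and 0 with a TPM of 4.37, 13.8 and 11.9.

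Of the 8 tri-snRNP mRNAs that the name rule caught, 7 were more edited with PABPC than with PABPN, against 56.4% of protein-coding genes, the exception being PRPF6 (0.0187, 0.120 and 0.0775), named after its values were seen. Of 7 more tri-snRNP genes outside the name rule, 3 were higher with PABPC and 4 lower, so the majority did not extend to them. With 0.01 added to each EPKM, only 2 of the 8 members were at least 2-fold higher with PABPC, against 36.3% of protein-coding genes. Both were listed at 0 in the PABPN IP. PRPF8, the protein at the heart of the catalytic centre, had an EPKM of 0.151, 0.110 and 0.189. By TPM it lay on the other side, at 119, 249 and 79.6, with a ratio of -1.45. The share of PRPF8 mRNA in the library was thus higher with PABPN. Its pooled EPKM was higher with PABPC, by less than 2-fold.

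SNRNP200, the helicase that unwinds U4 from U6, was singled out after its values were seen. Its EPKM of 0, 0.116 and 0.125 was nearly equal in the IPs, at a TPM ratio of -1.16. PRPF4, a U4/U6 protein singled out in the same way, was edited at 0.404, 0 and 0.0421, above 97.9% of protein-coding genes in the Input, and its ratio was 0.07. PRPF3, PRPF31, SNRNP27 and SNRNP40 had EPKM of at most 0.324 and ratios from -1.26 to 1.01. Of the 8 tri-snRNP ratios, 3 were above 0.5 and 3 below -0.5 (37.5% each, against 29.9% and 31.1% of protein-coding genes).

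The other PRPF mRNAs held the lowest TPM ratios that passed the filter. PRPF38B was at -2.09, PRPF39, a protein linked to U1, at -1.91, and PRPF4B, a kinase of the spliceosome, at -1.91. TPM was 13.0, 63.8 and 12.7 for PRPF38B, 10.3, 71.3 and 16.3 for PRPF39 and 13.6, 57.4 and 13.1 for PRPF4B, so that each was highest in the PABPN IP. EPKM of these 3 did not exceed 0.0652 in any fraction, at 0.0138, 0 and 0.0479 for PRPF38B, 0.0256, 0.0251 and 0.0120 for PRPF39 and 0.0518, 0.0547 and 0.0652 for PRPF4B. PRPF40B, outside the filter, had a TPM of 1.32, 7.44 and 2.05, an EPKM of 0, 0.0543 and 0.00282 and a ratio of -1.45.

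PRPF19, the ubiquitin ligase that scaffolds the activated spliceosome, stood apart from this family. Its EPKM was 0.320, 0.0153 and 0.156, its TPM 203, 206 and 425 and its ratio 1.23, the highest of the long class. PRPF18, a second-step factor, was edited at 0.0717, 0.0761 and 0.00990 and had a ratio of 0.42. The 2 family members not named here had ratios of -1.08 and 0.28 and EPKM of at most 0.0686.

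Of the 3 members that belong to the U11/U12 particle of the minor spliceosome, SNRNP25 was edited at 0.0818, 0 and 0.0573 with a ratio of 1.12, and SNRNP35, outside the filter, at 0, 0.114 and 0.0381 with a ratio of -1.08. TPM was 70.8, 113 and 216 for SNRNP25 and 3.11, 12.3 and 4.81 for SNRNP35. The remaining mRNA had a ratio of -0.19. These 3 mRNAs, too, lay on both sides of 0.

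Over the 53 members that passed the filter, the split of editing between the IPs was near the background. EPKM was higher in the PABPC IP in 31 (58.5%, against 56.4% of protein-coding genes), lower in 21 and equal in 1. At least 2-fold higher values were found in 18 (34%, against 36.3%) and at least 2-fold lower values in 13 (24.5%, against 21.1%). The median paired difference was 0.0169 EPKM (interval over genes -0.00600 to 0.0431). With 0.1 added to each EPKM instead of 0.01, 6 were past 2-fold higher (11.3%, against 9.0%) and 5 past 2-fold lower (9.43%, against 3.71%), and with no TPM filter 31 of 57 were higher (54.4%, against 49.9%) and 25 lower. Against the Input, 21 members were higher in the PABPC IP (39.6%, against 57.3%), as were 22 in the PABPN IP (41.5%, against 45.2%).

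By abundance, more members lay toward the PABPC IP than the background would give. The TPM ratio of the PABPC IP to the PABPN IP was above 0.5 in 29 of 53 members (54.7%, against 29.9%) and below -0.5 in 13 (24.5%, against 31.1%), with a median of 0.73 (interval over genes -0.01 to 1.01). With no TPM filter, 30 of 57 were above 0.5 (52.6%, against 29.9%) and 17 below -0.5 (29.8%, against 31.8%). The median was then 0.67, or 0.50 with the centre kept as in the main values. The ratio of the PABPC IP to the Input was above 0.5 in 13 (24.5%, against 9.02%) and below -0.5 in 12 (22.6%, against 17.4%), with a median of 0.11. That of the PABPN IP to the Input was above 0.5 in 6 (11.3%, against 23.7%) and below -0.5 in 22 (41.5%, against 20.6%), with a median of -0.45. The number above 0.5 was 10 of 57 with no TPM filter (17.5%, against 24.4%). At a TPM of at least 20 it was 5 of 45 (11.1%, against 21.1%), or 2 with the centre kept (4.44%, against 14.0%). The 3 ratios share their columns, so they are not separate evidence. Centring removed -0.19, 0.95 and 1.10 in the same order, and without it the median for the PABPN IP over the Input was 0.65, with 34 members above 0.5 (64.2%, against 84.1% of protein-coding genes), and 41 members were above 0.5 for the PABPC IP over the Input (77.4%, against 80.2%). Among the 45 members whose TPM reached 20 in each IP, the median for the PABPC IP over the Input was -0.04 when the centre was also taken over protein-coding genes past 20 and 0.11 when it was kept.

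**Figure D3:**
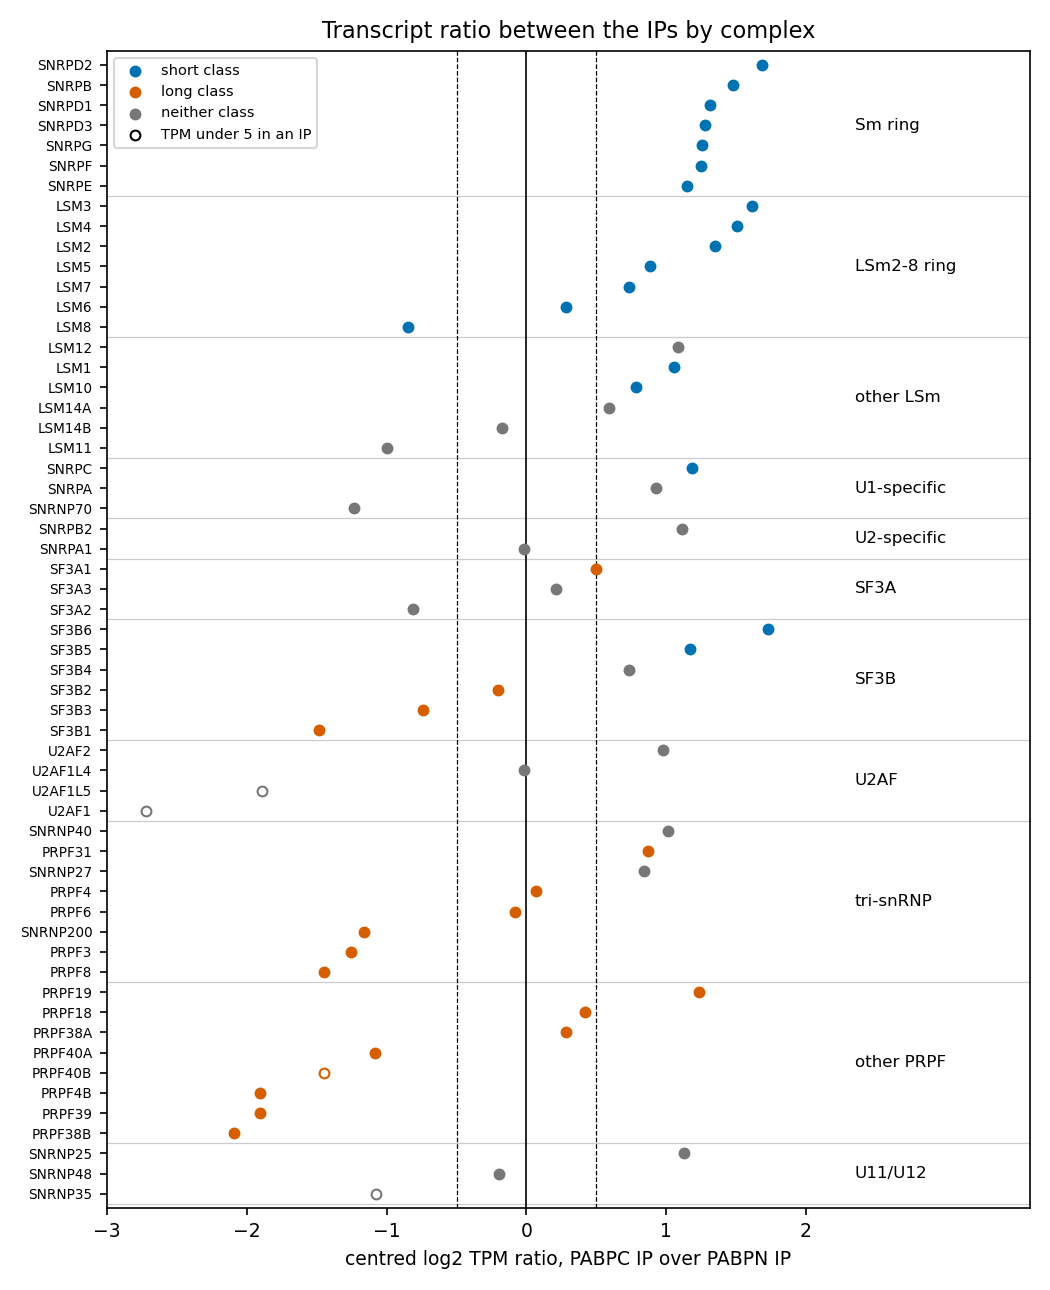
Centred log2 ratio of average TPM in the PABPC IP to that in the PABPN IP (x axis) for all 57 members (y axis), grouped by complex and colored by length class. Dashed lines mark the thresholds of -0.5 and 0.5, and open circles mark the 4 members with a TPM under 5 in an IP. All 7 Sm ring mRNAs lie between 1.15 and 1.69, and SF3B spans -1.48 to 1.72.

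Short and long members were compared as families. The short class held the Sm and LSm2 to LSm8 rings, SNRPC, LSM1, LSM10, SF3B5 and SF3B6 (19 mRNAs), and the long class held the PRPF mRNAs, SF3A1, SF3B1, SF3B2, SF3B3 and SNRNP200 (17 past the filter). Median coding length was 309 and 2379 nt. The median TPM ratio of the PABPC IP to the PABPN IP was 1.25 in the short class (interval over genes 0.88 to 1.48) and -0.74 in the long class (-1.45 to 0.28). At a TPM of at least 20 in each IP, the long median was -0.34 over 12 mRNAs, or -0.0045 with the centre kept. The short median was then 0.92 over 17 mRNAs, or 1.25 with the centre kept. In the long class the lean toward PABPN thus depended on the filter and the centre. No long member exceeded the short median, while 10 of the 19 short members exceeded the highest long member, PRPF19. For the PABPC IP over the Input the medians were 0.55 and -0.96, and 15 of 19 short members exceeded every long one. In the PABPN IP over the Input the classes lay closer, at -0.51 and -0.08.

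Editing separated the classes far less. Median EPKM of the short and long classes was 0.150 and 0.0686 in the Input, 0.0319 and 0.0548 in the PABPN IP, and 0.0946 and 0.0616 in the PABPC IP. The short class was therefore higher in the Input and the PABPC IP and lower in the PABPN IP, with wide overlap. By fraction, only 3, 1 and 4 short members exceeded the highest long member, in the order given above. The fraction with the highest EPKM was the Input for 11 of 19 short (57.9%) and 6 of 17 long members (35.3%), against 26.6% of protein-coding genes.

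Over the 53 members, coding length and the TPM ratio of the PABPC IP to the PABPN IP had a Spearman rho of -0.70, and coding length and the ratio to the Input one of -0.86 for the PABPC IP. Over 9601 protein-coding genes with an annotated coding length the same values were -0.62 and -0.66, so the same direction was found over protein-coding genes as a whole. The ratio of the PABPN IP to the Input ran the other way with coding length, at a rho of 0.24 over members and 0.41 over protein-coding genes. Coding length and EPKM had a rho of -0.24 in the Input, 0.07 in the PABPN IP and 0.05 in the PABPC IP. These describe genes of shared libraries, which are not independent replicates. LSM8 lay well below other members of similar coding length. Its canonical transcript, at 12384 nt, was the longest of all members, and whether this bears on its ratio was not tested.

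**Figure D4:**
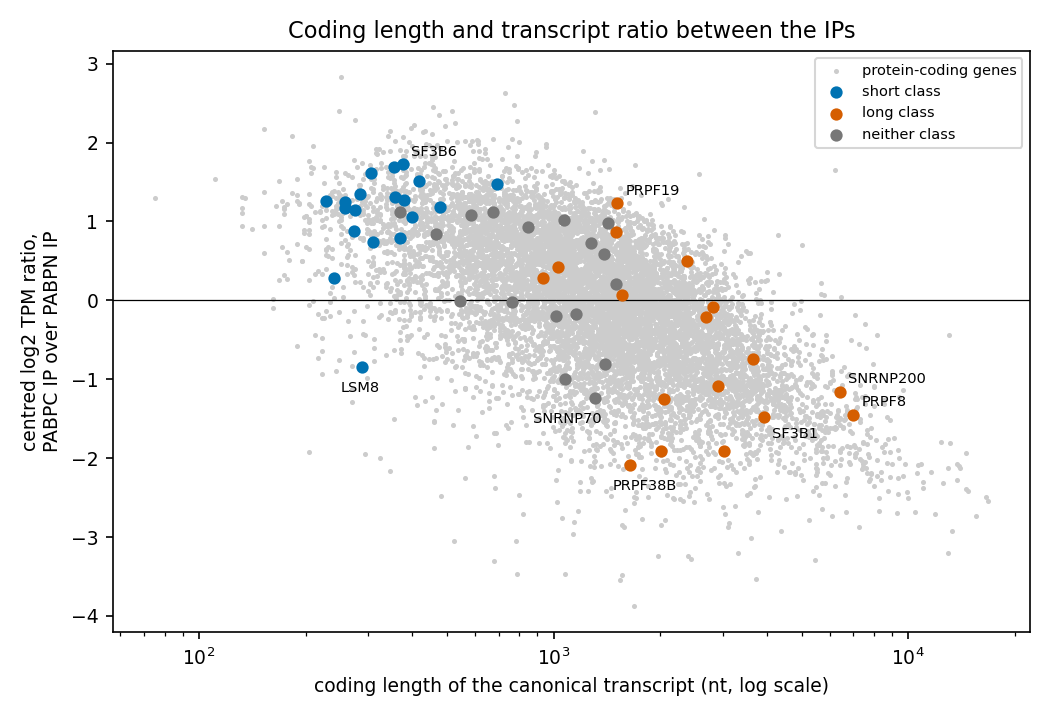
Coding length of the canonical transcript (x axis, nt, log scale) and centred log2 TPM ratio of the PABPC IP to the PABPN IP (y axis) for 53 members, colored by length class, over protein-coding genes in grey. Members follow the downward slope of all genes (rho -0.70 over members and -0.62 over protein-coding genes), with LSM8 at -0.85 as the low short member.

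EPKM is not scaled to the abundance of a transcript, and spliceosome mRNAs were abundant. Their median TPM was 48.3 in the Input, 79.1 in the PABPN IP and 94.7 in the PABPC IP, against 15.8, 38.4 and 28.9 for protein-coding genes. EPKM per 100 TPM had a median over members of 0.157 in the Input, 0.0712 in the PABPN IP and 0.0701 in the PABPC IP, and over protein-coding genes of 0.161, 0.0704 and 0.138. Relative to abundance, editing of the members was thus close to that of protein-coding genes in the Input and the PABPN IP and lower in the PABPC IP. EPKM and TPM of the same fraction had a rho over members of 0.50 in the Input, -0.03 in the PABPN IP and 0.30 in the PABPC IP, against 0.53, 0.25 and 0.45 over protein-coding genes.

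Other spliceosome and snRNP assembly genes outside the name rule, 59 in all with 58 past the filter, had lower median editing than the members. Their median EPKM was 0.0380 in the Input, 0.0431 in the PABPN IP and 0.0466 in the PABPC IP, and 28 were higher with PABPC than with PABPN (48.3%, against 56.4% of protein-coding genes), 26 lower and 4 equal. They were also less abundant, with a median TPM of 22.3, 45.6 and 35.2, and their median EPKM per 100 TPM of 0.155, 0.0847 and 0.0592 was close to the members' value in the Input, higher in the PABPN IP and lower in the PABPC IP. Their TPM ratio of the PABPC IP to the PABPN IP was above 0.5 in 19 (32.8%) and below -0.5 in 18 (31.0%), near the background of 29.9% and 31.1%. Highest were PHF5A (1.45), a small partner of SF3B1, SNU13 (1.39) of the tri-snRNP, and DNAJC8 (1.29). Lowest were RNPC3 (-1.83) of the minor spliceosome, the helicase AQR (-1.61) and the export helicase DDX39B (-1.51).

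By editing, the assembly cofactor WDR77 led the Input (EPKM 0.367, 0.0806 and 0.112), followed by PPIH and SNU13 (0.250, 0.174 and 0.0852). Its methyltransferase partner PRMT5 led the PABPC IP (0.121, 0.135 and 0.234), followed by EFTUD2 (0.145, 0.139 and 0.170) of the tri-snRNP and the helicase DHX16 (0.0266, 0.101 and 0.160). PPIH, a cyclophilin of the tri-snRNP, led the PABPN IP, ahead of SNU13 and the snRNA export adaptor PHAX (0, 0.163 and 0.0531), and had the largest deficit in the PABPC IP (0.259, 0.251 and 0), followed by SNW1 (0.0165, 0.163 and 0) and the helicase DHX15 (0.0649, 0.159 and 0.0412). PHF5A (0.166, 0 and 0.129), ZMAT5 of the minor spliceosome (0.0156, 0 and 0.124) and the tri-snRNP protein USP39 (0.0536, 0.0234 and 0.145) had the largest excess in the PABPC IP. At the low end, 9, 14 and 15 of the 58 were listed at 0 by fraction, among them AQR and GEMIN8 in all 3. Among the 58 past the filter, the most abundant by Input TPM were WDR77 (215, 335 and 511), STRAP (183, 203 and 423) and SF1 (137, 255 and 232). The least abundant of the 58 were SYF2 (4.62, 6.68 and 7.09), RNPC3 (4.86, 25.2 and 5.86) and SMN1 (5.16, 6.23 and 8.80).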

How the data were processed

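Reads had been mapped to hg38 by STAR and C-to-U edits called from them, from which the authors deposited normalized EPKM, a background-subtracted signal that is never below 0. The authors also deposited average TPM, made with featureCounts 2.0.2 by adding exonic and intronic TPM over an annotation without overlapping genes. How replicates were combined, how differences below 0 were treated and which samples entered each average TPM is not stated. TPM summed to 854272 in the Input, 975719 in the PABPN IP and 995724 in the PABPC IP, led by 7SK (174271), MT-CO1 (95994) and RPS2 (27182), the last also part of the fusion construct.

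The values are pooled, so no test was run. Computed were medians with 95% order-statistic intervals, shares with Wilson intervals, log2 TPM ratios and Spearman correlations over genes. The intervals are for the median or the share and treat genes as independent draws. They cover neither the range of single genes nor the variation between replicates. Coding lengths and transcript sequences came from GENCODE release 44, in which all 57 members were found.

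Named with values were all Sm, LSm2 to LSm8, SF3A, SF3B, U2AF1 and U2AF2 mRNAs. Of the rest, the 6 highest and 6 lowest by EPKM difference between the IPs, and the 5 highest and 5 lowest by TPM ratio of the IPs and by Input TPM, were named, and of the other spliceosome genes the 3 highest and 3 lowest by EPKM in each fraction, EPKM difference, TPM ratio and Input TPM, except that genes tied at 0 EPKM were counted. Members and lists were chosen with earlier results of these data known. Alternatives changed the TPM filter, the member list, the pseudocounts, the thresholds, the centring, the length classes and the measure of length. Values were computed in Python 3.11.15 with pandas 2.3.3, SciPy 1.17.1 and NumPy 2.4.6, and figures were drawn with matplotlib 3.10.9. The interval and ratio functions were tested on simulated data. For the ratios these held no noise and no pseudocount was added, a simpler case than the data used here.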

Additional observations from a re-analysis of the deposited data

How the results depend on the processing

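Of 204 values recomputed under another setting, 179 stayed within the interval of the main value or, for counts, within 1.5 times of it or, for rho, within 0.2 of it, 22 moved further and 3 changed sign. The cause was not tested unless the setting itself gives it. Some of the 179 could not have changed, because the setting left their genes as they were. An example is the long class without LSM1, LSM10, LSM11, LSM12, LSM14A and LSM14B, none of which it holds. Another is the short class with no TPM filter and the centre kept, since all its members passed the filter. The count of 179 therefore includes values with a fixed outcome.

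Without centring, the median TPM ratio of the PABPN IP to the Input went from -0.45 to 0.65, with 34 members above 0.5 and 0 below -0.5 (84.1% and 0.583% of protein-coding genes), and that of the PABPC IP to the Input from 0.11 to 1.06, with 41 above and 1 below (80.2% and 0.854%). With a threshold of 1, there were 19 members above for the PABPC IP over the PABPN IP (12.3% of protein-coding genes), 0 above and 6 below for the PABPC IP over the Input (0.0625% and 3.81%), and 2 above and 7 below for the PABPN IP over the Input (7.97% and 4.61%). For members whose TPM reached 20 in each IP, with the centre taken over protein-coding genes past the same filter, the median ratio of the PABPC IP to the Input was -0.035 with 8 of 45 members above 0.5 (4.52% of protein-coding genes), and the short class had a median of -0.35 for the PABPN IP over the Input. With the centre kept as in the main values, an alternative chosen after seeing the data, these were 0.11, 13 of 45 (13.9% of protein-coding genes) and -0.53, so the moved centre made these differences, while 7 members were below -0.5 for the PABPC IP over the PABPN IP (16.9%) and 2 above 0.5 for the PABPN IP over the Input (14.0%). With no TPM filter, which also moves the centre, 20 members of 57 were above 0.5 for the PABPC IP over the Input (14.1% of protein-coding genes) and 10 for the PABPN IP over the Input (24.4%), and the short class had a median of 0.69 for the PABPC IP over the Input. With the centre kept, an alternative also chosen after seeing the data, these were 13 (6.70% of protein-coding genes), 10 (26.1%) and 0.55. The mean EPKM in the Input was 0.129, above the median. With a pseudocount of 0.1 EPKM, 6 members were past 2-fold toward the PABPC IP and 5 toward the PABPN IP (9.0% and 3.71% of protein-coding genes). With the union of annotated exons as length, an alternative chosen after seeing the data, rho with the ratio of the PABPN IP to the Input went from 0.24 to 0.45 and rho with EPKM of the PABPC IP was -0.0015.

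No paired analysis was possible because each value is pooled over replicates, and for the same reason leaving out each replicate in turn and a replicate block were not run. The table gives no depth or edit count per value, which limits every value listed at 0.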
